A study of Capra hircus with 6 samples.

Results

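Milk fat leaves the secretory cell of the mammary gland as a globule wrapped in the cell's own apical membrane. The genes described here encode 8 proteins of that globule or of the apical membrane around it and 2 proteins of the whey. They are *BTN1A1*, *XDH*, *PLIN2*, *MUC1*, *MUC15*, *MFGE8*, *CD36* and *ABCG2* for the globule and membrane, and *PAEP* and *SPP1* for the whey. They were followed in an ATAC-seq comparison of goat mammary epithelial cells from the dry period (3 libraries) and the lactation period (3 libraries). ATAC-seq reads out accessible chromatin through the cuts that the Tn5 transposase makes in it. No genotype, agent, age or parity is given for either group, and nothing in the labels tells whether separate goats gave the libraries. The p-values below may therefore measure technical spread only.

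What the authors deposited is 1 table of 30714 regions that differ between the periods at p under 0.001, each with a fold change, a p and a false discovery rate (FDR), and no value per library. A region belonged to a gene here when its centre lay inside the gene or within 50000 bp of one of its ends, whatever its FDR. That rule gave 35 regions at 8 of the 10 genes, and none of the 35 fell to more than 1 of them. The region names form a set 1 (22884 regions) and a set 2 (7830 regions), and every fold change in both is a ratio above 1, so each set was read as the regions more accessible in 1 period. The sources used here do not tie a set to the dry period or to lactation. The directions below are therefore given by set. The gene table gives no strand, so a gene's start could not be told from its end. Depth per library is unknown, and the table holds no levels, so the cell type on the labels could not be checked against its markers by level.

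In the secreting cell, lipid droplets coated by perilipins move to the apical membrane, where butyrophilin (*BTN1A1*), xanthine oxidoreductase (*XDH*) and the droplet coat protein perilipin 2 (*PLIN2*) are thought to hold the droplet to the membrane that buds around it. Mucins, lactadherin (*MFGE8*), the fatty acid receptor CD36 and the efflux transporter ABCG2 are carried out with that membrane. Whey proteins such as beta-lactoglobulin (*PAEP*) and osteopontin (*SPP1*) leave by the ordinary secretory route.

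The regions at these genes were mostly of set 1 and mostly of small fold change, and most of them lay at *BTN1A1* and *MUC1*. Of the 35, 32 were in set 1 (91.4%, 95% Wilson interval 77.6% to 97.0%, counting error only) and 3 in set 2, while set 1 held 74.5% of the whole table. The interval takes the regions as independent, although many are close neighbours. It was 70.0% to 95.8% with neighbours joined and 72.2% to 97.5% without *BTN1A1*, and both take in 74.5%. Regions near gene ends lean the same way throughout the table: set 1 held 76.6% of all listed regions within 50000 bp of a protein-coding gene and 89.2% of those within 3000 bp of a gene end. At an FDR under 0.05, 10 of the 35 regions passed, against 27.8% of all listed regions. All 10 were in set 1, which holds 91.5% of the regions that passed over the whole table. In set 1 the share passing was 31.25% at these genes and 34.2% over the whole table, and none of the 3 set 2 regions passed, against 9.23% of all set 2 regions. The 10 that passed belonged to *BTN1A1* (6), *PAEP* (2), *MUC1* (1) and *MFGE8* (1). Thus 4 of 10 genes had a region that passed, all in set 1, beside 51.4% of 19063 protein-coding genes with such a region in either set. For set 1 alone that share was 48.9%, and for set 2, where no gene of the 10 had one, it was 5.06%. At an FDR under 0.01 the count was 4 of 35 regions (13.1% of all listed regions), and at an unadjusted p under 1e-05 it was 5 of 35 (17% of all). These shares lie near the background, and no set test was made. In bulk libraries a change of accessibility within cells and a change in the share of a cell type cannot be told apart.

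**Figure D1:**
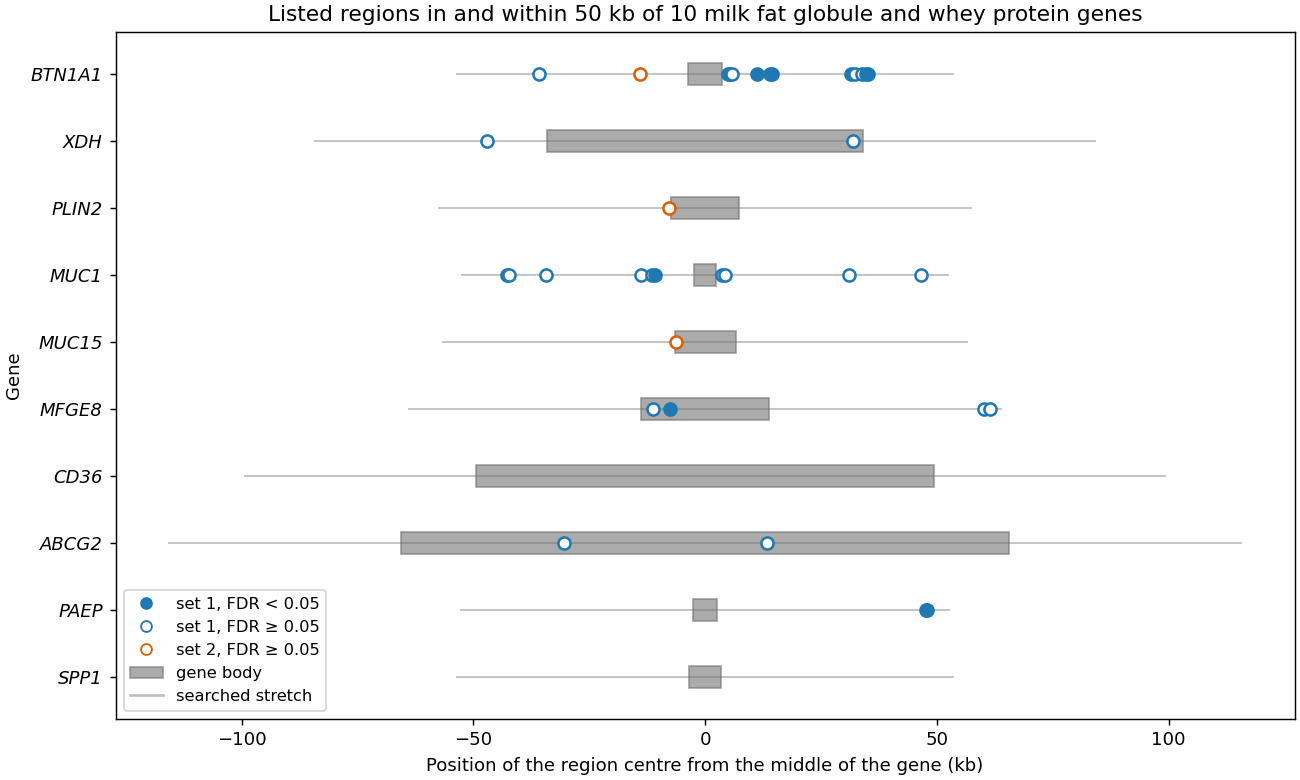
Each row is a gene drawn to scale, with the position of region centres in kb from the middle of the gene on the x axis and the genes on the y axis; blue marks set 1, orange set 2, and filled points have an FDR under 0.05. *BTN1A1* (13 regions) and *MUC1* (10 regions) hold most points, while the rows of *CD36* and *SPP1* are empty.

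The genes differed widely in how many regions they held. *BTN1A1* had 13 and *MUC1* 10, together 23 of the 35. *MFGE8* had 4, and *XDH*, *ABCG2* and *PAEP* had 2 each. *PLIN2* and *MUC15* had 1 each. *CD36* and *SPP1* had 0. Over all protein-coding genes the median was 3 listed regions (interquartile range 1 to 6), and 4.67% of genes had as many as *BTN1A1* or more. For *MUC1* that share was 9.87%. The stretches searched held 2.54 regions per 100 kb at the 10 genes and 2.57 at all protein-coding genes. In the latter a region near several genes counts once for each. Without *BTN1A1* and *MUC1* the other 8 genes held 1.03 per 100 kb. Leaving out the 2 highest counts lowers the value by itself, so 1.03 is not to be compared with 2.57. A listed region of any FDR lay near 8 of 10 genes, beside 79.7% of all protein-coding genes, and inside the gene itself at 4 of 10, beside 39.7%.

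**Figure D2:**
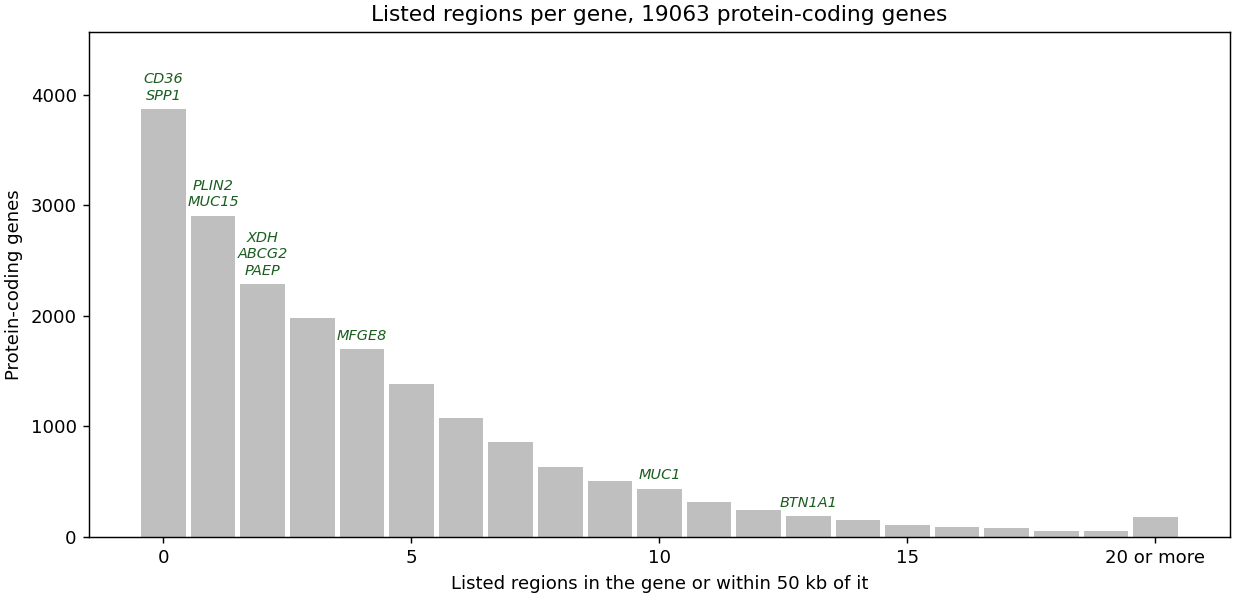
The bars count protein-coding genes (y axis) by the number of listed regions in the gene or within 50 kb of it (x axis, the last bar holding 20 or more), with the names of the 10 genes above the bar they fall in. The 2 genes farthest right are *MUC1* with 10 regions and *BTN1A1* with 13.

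*BTN1A1* encodes butyrophilin, a membrane protein of the globule from the immunoglobulin superfamily, and its neighbourhood on chromosome 23 held the smallest p of all 35 regions. No listed region lay inside the gene. On its higher-numbered side 11 set 1 regions followed each other over 30.4 kb, and 6 of them passed. The closest that passed lay 1887 bp from the gene, at 18393001 to 18393200, with a fold change of 2.08 per the authors' deposited table (p = 3.23e-06, FDR = 0.00677). Regions of 200 bp stood on both sides of it, 1387 and 2287 bp from the gene, with fold changes of 2.36 (FDR = 0.210) and 1.78 (FDR = 0.173) per the authors' deposited table. Together they form a row of 3 short regions of set 1 at that end of *BTN1A1*, and the middle one alone passed.

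The other regions that passed at *BTN1A1* lay nearer to another protein-coding gene, *LOC102179149*, and nearer still to tRNA genes. For the region at 18398701 to 18399100, 7687 bp from *BTN1A1*, the fold change was 1.80 per the authors' deposited table (FDR = 0.0240). At 18401901 to 18402400 the authors' deposited table gave 1.59 with a p of 2.98e-07 (FDR = 0.00125). This was the lowest fold change among the 10 regions that passed, and only 1 of the 35 had a smaller p. Farther out came the widest region of all 35, 800 bp at 18418601 to 18419400, with a fold change of 2.37 per the authors' deposited table (FDR = 0.0325). The smallest p, 8.22e-09, belonged to the region at 18422101 to 18422500, 31087 bp from *BTN1A1*, with 2.22 per the authors' deposited table (FDR = 8.57e-05). Its neighbour at 18422601 to 18422900 had 2.001 per the authors' deposited table (FDR = 0.0140). The set 1 regions that did not pass on this side had fold changes of 1.48 to 2.36.

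tRNA genes lie all along this stretch. The window of *BTN1A1* holds 10 of them beside 4 protein-coding genes, and 10 of its 13 regions had their centre within 1000 bp of a tRNA gene, the 6 that passed included. Over the numbered chromosomes that was so for 1.14% of listed set 1 regions and 0.157% of listed set 2 regions. It was so for 0 of the regions at the other 7 genes with one. Those regions all lay 55652 bp or more from the nearest tRNA gene, so the 0 gives no contrast with *BTN1A1*. Whether the set 1 regions at *BTN1A1* belong to the butyrophilin gene or to the tRNA genes was not tested. The first region beyond the 50000 bp limit, 51087 bp away, was also in set 1, with 4.46 per the authors' deposited table (FDR = 0.00209). Within 500000 bp of *BTN1A1* there were 154 listed regions, of which 3 were in set 2.

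On the lower-numbered side, towards the other butyrophilin genes, both regions had large fold changes and neither passed. One, inside *BTN3A3*, was in set 1 with a fold change of 4.13 per the authors' deposited table (FDR = 0.185). Between *BTN2A2* and *BTN1A1*, 10420 bp from *BTN1A1* and 1541 bp from *BTN2A2*, lay the only set 2 region of the locus, at 18373501 to 18373700. Its fold change of 5.79 per the authors' deposited table was the highest of all 35 (p = 5.83e-05, FDR = 0.210). In set 1 the highest p that passed was 6.21e-05 and in set 2 it was 5.63e-06, so a p of this size passes in one set and not in the other.

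**Figure D3:**
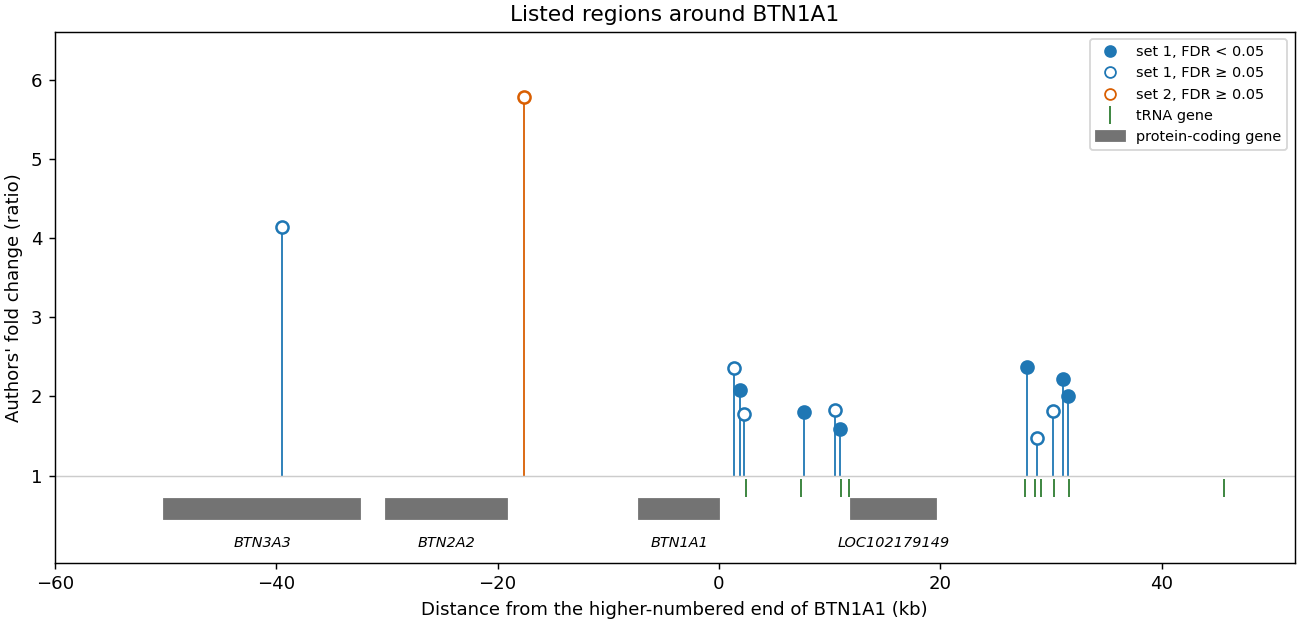
Fold change (y axis, a ratio) of the 13 listed regions around *BTN1A1* against distance from the higher-numbered end of the gene in kb (x axis), with protein-coding genes as grey bars and tRNA genes as green ticks. The 6 filled points, which have an FDR under 0.05, all lie to the right of the gene, among tRNA genes, and the 2 highest points lie to the left and did not pass.

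*XDH*, which encodes the purine-degrading enzyme that binds butyrophilin at the apical membrane, had 2 set 1 regions on chromosome 11 and neither passed. The one at 14095301 to 14095500 lies inside the gene, 2308 bp from its nearer end, with a fold change of 1.88 per the authors' deposited table (p = 0.000335, FDR = 0.142). At 14016201 to 14016700, inside the neighbouring gene *FAM136A* and 12962 bp from *XDH*, the authors' deposited table gave 1.52 (FDR = 0.142). Both fold changes lie in the lower part of set 1, with 25.5% and 6.64% of set 1 regions at or below them.

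*PLIN2*, the gene for the coat protein of the cytoplasmic lipid droplet, had 1 region, in set 2. It lies on chromosome 8 at 24992901 to 24993100, 362 bp outside the gene, the shortest such distance among regions outside the 10 genes. Its fold change per the authors' deposited table was 5.32, with 78.6% of set 2 regions at or below it, but with a p of 0.000738 and an FDR of 0.753 it was far from passing. The next region lay just past the 50000 bp limit, 50238 bp away, in set 1 with a fold change of 2.29 per the authors' deposited table (FDR = 0.262).

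The mucin genes held regions of different sets, 10 of set 1 at *MUC1* and 1 of set 2 at *MUC15*. Of these only 1, at *MUC1*, passed, and the difference between the genes was not tested. *MUC1* encodes the large glycosylated mucin of the apical surface. It sits in a dense row of genes on chromosome 3, and each of its 10 regions lay nearer to another gene than to *MUC1* itself. The 1 that passed is inside *TRIM46*, 8393 bp from *MUC1*, at 104691901 to 104692100, with a fold change of 1.65 per the authors' deposited table (p = 2.69e-06, FDR = 0.00597). Another at 104691201 to 104691500, also inside *TRIM46*, had 1.57 per the authors' deposited table (FDR = 0.102), and that at 104689001 to 104689200 had 2.204 (FDR = 0.114).

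Closest to *MUC1* were 2 regions in the gap between it and *THBS3*, a thrombospondin gene. By the authors' deposited table the one at 104706301 to 104706500, 1165 bp from *MUC1* and 1140 bp from *THBS3*, had a fold change of 1.61 (FDR = 0.139). That at 104707101 to 104707300 had 1.79 per the authors' deposited table (FDR = 0.0722), and it lies 340 bp from *THBS3*. Regions also lay inside *EFNA1* (2 regions), *SLC50A1* and *FAM189B*, with fold changes of 1.49 to 1.98 per the authors' deposited table and FDRs of 0.104 to 0.220. The whole span of fold change at *MUC1*, 1.49 to 2.204, lay below the set 1 median of 2.39.

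*MUC15* encodes a smaller membrane mucin first known from the milk fat globule. Its only region is in set 2 on chromosome 15 at 25673701 to 25674000, inside the gene and 258 bp from one of its ends. *MUC15* lies within the longer gene *ANO3*, so the region is inside both. The authors' deposited table gave it a fold change of 2.36 (p = 0.000150, FDR = 0.351), with 17.3% of set 2 regions at or below it. No other listed region came within 433.4 kb of *MUC15*.

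The regions of *PLIN2* and *MUC15* are the 2 of set 2 that stand beside an end of their own gene. Neither passed (FDR = 0.753 and 0.351). A listed set 2 region within 3000 bp of an end occurred at 5.2% of protein-coding genes and at 2 of these 10, a difference that was not tested. A listed region of either set occurred there at 6 of 10 genes (*BTN1A1*, *XDH*, *PLIN2*, *MUC1*, *MUC15* and *MFGE8*) and at 36.4% of all genes. One that passed was found there at *BTN1A1* alone, beside 14.4% of all genes. A listed set 2 region anywhere within 50000 bp was found at 3 of 10 genes and at 37.6% of all.

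*MFGE8* encodes lactadherin, which bridges phosphatidylserine on membranes to integrins. It is the only gene of the 10 with a region inside it that passed. This region, on chromosome 21 at 19773901 to 19774300, lies 6308 bp inside the nearer end, with a fold change of 1.66 per the authors' deposited table (p = 4.09e-05, FDR = 0.0380). Nearer to the same end, at 19770201 to 19770400, the authors' deposited table gave 4.20, the highest set 1 fold change of all 35 regions, which did not pass (p = 0.000156, FDR = 0.0890). The 2 remaining regions lay 46385 and 47685 bp away, near the 50000 bp limit, with 2.23 (FDR = 0.255) and 1.59 (FDR = 0.270) per the authors' deposited table. Both lie nearer to *ABHD2*, whose end is 36302 and 35002 bp away. The next one outward was 99185 bp from *MFGE8* and in set 2.

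At *CD36*, the gene for a receptor that takes up long-chain fatty acids, no listed region was found. CD36 is also made by adipocytes, endothelial cells and macrophages. The gene lies on chromosome 4 in a stretch of 884.2 kb without any of the 30714 regions. Gaps at least as long make up 1.199% of all gaps between neighbouring regions, whose median is 21.5 kb. The flanking regions are 398.4 kb away near *GNAI1*, in set 1 with a fold change of 1.42 per the authors' deposited table (FDR = 0.0402), and 387.1 kb away inside *SEMA3C*, in set 2 with 2.40 (FDR = 0.760). Only 2.65% of protein-coding genes were farther from their nearest listed region.

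*ABCG2* encodes the apical efflux transporter that moves riboflavin and many drugs into milk, and at 131.3 kb it is the longest of the 10 genes. Both of its regions lie deep inside it on chromosome 6, in set 1, at larger fold changes than most. The one at 37066601 to 37067100 had 3.10 per the authors' deposited table (p = 9.72e-05, FDR = 0.0662), just short of passing. That at 37022901 to 37023100 had 3.59 per the authors' deposited table (FDR = 0.145). They lie 52169 and 35235 bp from the nearer end of the gene.

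*PAEP* encodes beta-lactoglobulin, the main whey protein of ruminant milk. Both regions within its limit passed, but they lie near the far edge of the searched stretch. They are 2 neighbouring 200 bp regions of set 1 on chromosome 11. At 102772101 to 102772300, 45069 bp from *PAEP*, the fold change was 2.65 per the authors' deposited table (p = 1.08e-05, FDR = 0.0157). At 102772401 to 102772600 it was 2.32 per the authors' deposited table (FDR = 0.0226). The nearest gene to both is *KCNT1*, a sodium-activated potassium channel, whose end is 1786 and 1486 bp away. Between them and *PAEP* lie the genes *GLT6D1*, *LCN9* and *SOHLH1*, and no listed region was closer to *PAEP*.

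*SPP1* encodes osteopontin, a secreted phosphoprotein of milk, bone and macrophages. It had no listed region, although it lies beyond *PKD2* from *ABCG2* on the same chromosome. The nearest region on one side is the *ABCG2* region just described, 147.7 kb away. On the other side, near *MEPE* and 80.5 kb away, a set 1 region at 37301901 to 37302100 had 5.16 per the authors' deposited table (p = 0.000364, FDR = 0.149). Together they bound a gap of 235.2 kb, and 6.65% of gaps are at least as long. By gene, 14.4% of protein-coding genes were farther from their nearest listed region than *SPP1*. A table of differing regions does not tell a gene that was open in both periods from one that was closed in both.

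The fold changes at these genes were set beside those of all listed regions. In set 1, 27 of the 32 regions had a fold change below the median of all listed set 1 regions (2.39). The median of the 32 was 1.87, with a range of 1.48 to 4.20. Most of the 27 were at *BTN1A1* (12 set 1 regions, median 1.91) and *MUC1* (10, median 1.72). Outside these 2 genes the set 1 regions fell on both sides of 2.39. All 5 regions above 2.39 were at *BTN1A1*, *MFGE8*, *ABCG2* (2) and *PAEP*. The median of set 1 regions within 50000 bp of any protein-coding gene was 2.36, and within 3000 bp of a gene end 2.18. None of the 6 regions with a fold change above 3 (4 in set 1 and 2 in set 2) passed, against 10 of the 29 at 3 or less. Among all listed regions, 29.3% of set 1 regions above 3 passed and 36.3% of those at 3 or less. In set 2 these shares were 9.62% and 8.49%. With 6 regions above 3 at these genes, no difference from the whole table was tested. The 10 regions that passed had a median fold change of 2.04 (range 1.59 to 2.65) and a median width of 350 bp. Most regions were narrow: 57.1% were 200 bp wide, the least width in the table, against 48.6% of all listed regions.

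**Figure D4:**
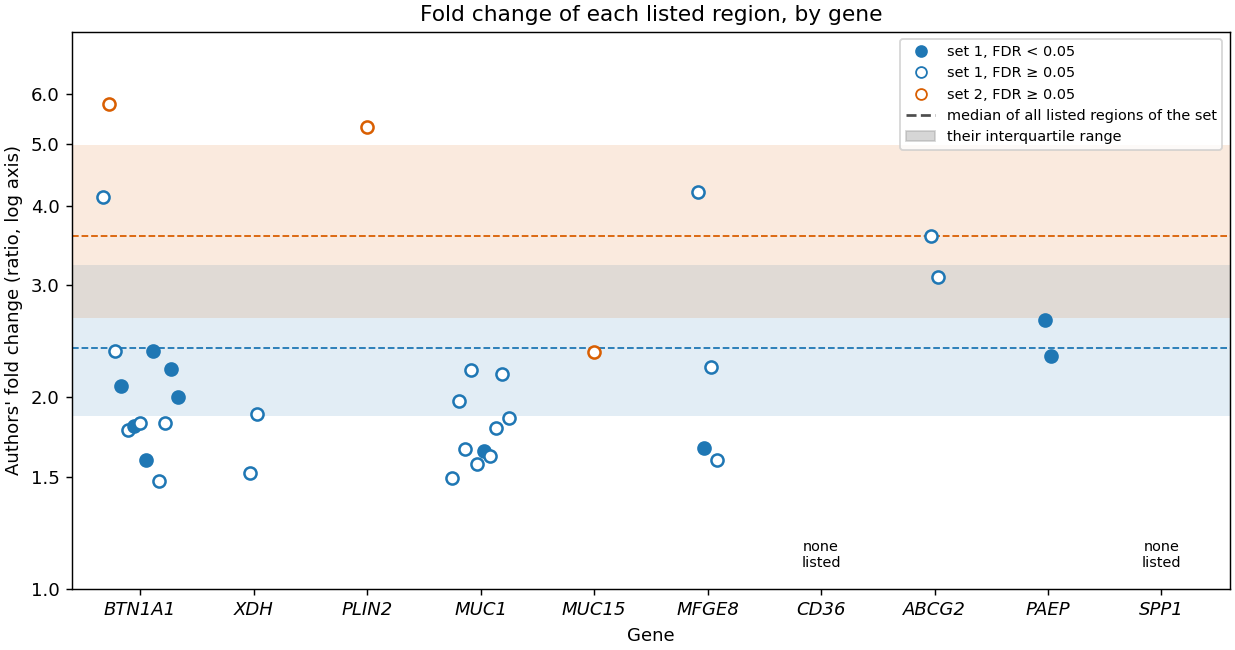
Each point is 1 listed region, with the authors' fold change on a log axis (y) by gene (x); dashed lines and bands give the median and interquartile range of all listed regions of set 1 (blue, median 2.39) and set 2 (orange, median 3.59). Filled points have an FDR under 0.05, and none of them lies above a fold change of 2.65.

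**Figure D5:**
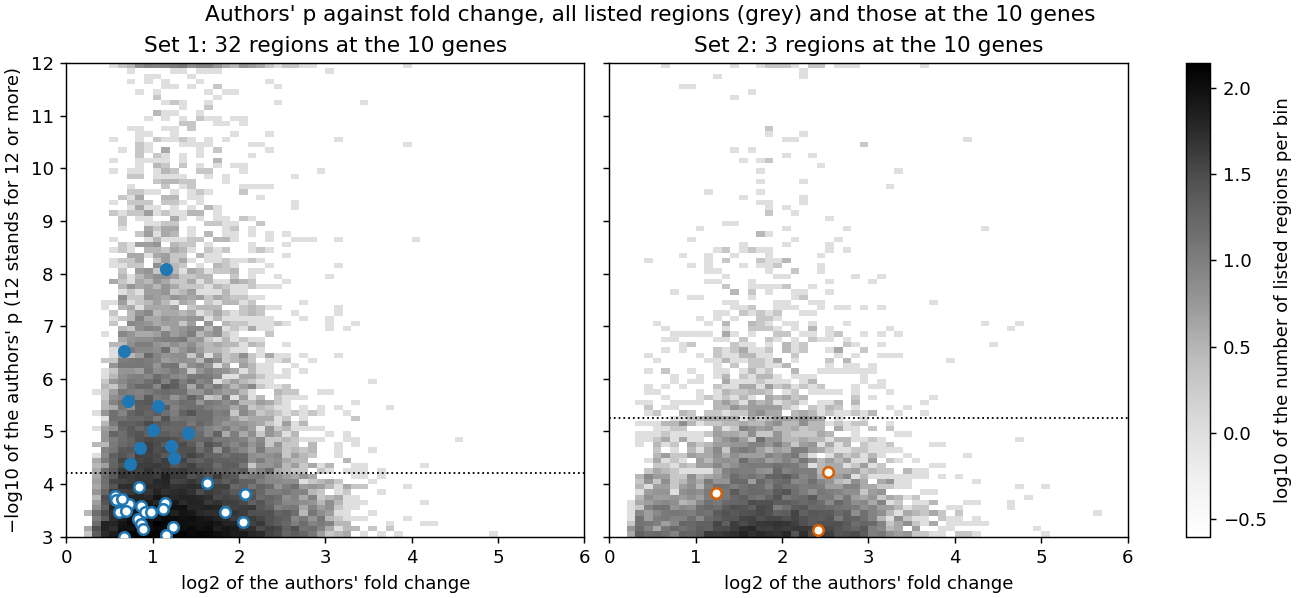
The −log10 of the authors' p (y axis) against the log2 of the fold change (x axis) for all listed regions (grey, log10 of the number per bin) and the 35 at these genes (points) in set 1 (left, 32) and set 2 (right, 3); the dotted line is the highest p with an FDR under 0.05 in that set. The 10 filled points lie above the line of set 1, and the 3 points of set 2 lie below theirs, which is drawn at a smaller p.

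Other genes of globule and lipid droplet secretion were counted from a list. Of 25 such genes matched in the gene table, 17 had a region at an FDR under 0.05 within 50000 bp, beside 51.4% of all protein-coding genes. Such a region was in set 1 at 16 genes (48.9% of all genes) and in set 2 at 1 (5.06% of all). The gene with one in set 2 was *RAB18*, a small GTPase of the lipid droplet surface, with a set 2 region 10263 bp from the gene at a fold change of 7.48 per the authors' deposited table (FDR = 6.58e-06). Set 1 was led by *CIDEC*, a protein of lipid droplet fusion, at 4.89 per the authors' deposited table (FDR = 0.0196), though this region lies 38578 bp from the gene and nearest to *CRELD1*. The annexins *ANXA1* (4.18, FDR = 0.0286) and *ANXA2* (3.80, FDR = 2.92e-05) followed per the authors' deposited table. Over the 132 regions of these genes the median fold change was 2.52, and 116 were in set 1. The list shares regions with *BTN1A1* through *BTN2A2*.

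Of 16 matched genes for other whey and secreted defence proteins, 7 had a region that passed, beside 51.4% of all protein-coding genes. All 7 were in set 1, as were 91.5% of all regions that passed, and no test compared the lists. *JCHAIN*, the joining chain of secreted immunoglobulins, had the highest fold change at 3.74 per the authors' deposited table (FDR = 0.00895). The immunoglobulin transporter *FCGRT* had 3.20 per the authors' deposited table (FDR = 0.0391), the peroxidase *LPO* had 3.03 (FDR = 0.0107) and the calcium-binding *NUCB1* had 2.57 (FDR = 0.00178). The region of *JCHAIN* lies 37340 bp from the gene. Over the 40 regions of this list the median fold change was 2.37, with 36 in set 1 and 4 in set 2.

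Markers of the cells that could carry such genes were counted in the same way; *CIDEC* is on both the adipocyte list and the droplet list above. A region that passed was found at 7 of 7 luminal epithelial markers, 3 of 6 myoepithelial, 5 of 6 adipocyte, 4 of 6 endothelial and 5 of 7 macrophage markers, beside 51.4% of all protein-coding genes. The luminal count takes in *KRT8* and *KRT18*, which share their region of largest fold change. Set 2 regions that passed were found at 0 luminal, 0 myoepithelial, 1 adipocyte, 3 endothelial and 2 macrophage markers, beside 5.06% of all protein-coding genes. With 6 or 7 genes a list, no contrast between cell types was tested. The part of cell makeup in the regions at *PLIN2*, *MFGE8* and the other genes was not tested.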

How the data were processed

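Accessible chromatin was measured by ATAC-seq on 50000 goat mammary epithelial cells per library, 3 of the dry period and 3 of lactation. Bowtie2 2.2.5 and MACS2 were used, per the submitters' processing notes, which give no role for either. Not given in the sources used here are the genome build, the program that compared the periods, its filters, any shift for the Tn5 cut and the removal of duplicates.

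The authors deposited 1 table. Its fold change is a linear ratio, above 1 in both sets, per the file headers and values. The p-value and the FDR, a q-value headed Benjamini-Hochberg, were used as the authors deposited them. The FDR values imply about 1.32e+07 tests, far more than the 30714 regions listed. The deposited signal value is a score equal to the fold change times 1 constant per set, and it was not used. The length column, deposited in another unit (bp), equals end minus start as deposited, where starts count from 0. No column holds a value per library, so depth per library is unknown and no fit across libraries could be made.

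Regions were placed with Python 3.11.15 and pandas 2.3.3 on 19063 protein-coding genes of chromosomes 1 to 29 from a RefSeq gene table of assembly ARS1.2. The authors' sequence names were read in their numbered order as chromosomes 1 to 29. As a check of this match, on 29 of 29 chromosomes the share of regions within 1000 bp of a gene end was higher with the genes of that chromosome than with those of another. Within 1 Mb of the 10 genes that share was 25.9%, and 10.5% with positions moved by 100000 bp. Positions are the authors', with 1 added to each start so that they count from 1; none of the gene table is printed. The placing was tested on simulated data. No sequence is printed.

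The genes and lists were chosen with earlier results of these data known. The rule for named genes takes all 10 genes, each region with an FDR under 0.05, each gene's region of smallest p, and up to 4 genes per further list by largest fold change. *FABP4*, *SAA3*, *CLU*, *TF* and *PTGDS* were not matched. Alternatives were another distance, placing by any overlap, the nearest gene alone, a stricter FDR, 1 p limit for both sets, passing regions alone and leaving out *BTN1A1*. Joining neighbouring regions was chosen after seeing the data. The place of 1 region within the *MUC1* limit is not reported here.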

Additional observations from a re-analysis of the deposited data

How the results depend on the processing

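Of 32 recomputed values, 19 stayed within 1.5 times the reported count or within the reported interval (Wilson for the share, order statistics for the median), and 13 moved. At a distance of 25000 bp there were 20 regions, 5 of them passing, where 27.8% of all listed regions pass. At 100000 bp there were 65 with 20 passing, and most of the 20 were at *BTN1A1*. *XDH* and *ABCG2* joined the genes with a passing region through set 1 regions 95562 and 82315 bp away. With only regions whose nearest protein-coding gene is one of the 10, 10 regions were left, 2 passed, at 2 genes (*BTN1A1* and *MFGE8*), and the median fold change was 2.36. An FDR under 0.01 (13.1% of all listed regions) left 4 regions at 2 genes, and a p under 1e-05 (17% of all) left 5 at 2 genes. The 51.4% of protein-coding genes with a passing region holds for 50000 bp and an FDR under 0.05 only. No such share is given for the other settings, so their gene counts have no background here. Among regions that passed, the set 1 share was 100%, beside 91.5% of all regions that passed in the table. Without *BTN1A1* the share in set 1 was 90.9% and the median fold change 1.93. Joining regions of 1 set with gaps of 1000 bp or less gave 25 regions, 22 of them in set 1.

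No paired analysis was possible because the table holds no value per library. For the same reason libraries were not left out in turn and depths were not compared.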
